A study of Danio rerio with 6 samples.

Results

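The rows of 7 complement genes were described across zebrafish pituitary cells: cfd, c1qa, c1qb, c1qc, c4, c6 and clu. The genes were listed by name, in a choice made with earlier results of these data known. The tests on them are therefore no independent support for that choice. All 7 were found among 31325 gene rows. Cells came from AB fish carrying Tg(pomca:EGFP), a transgene in which the pomca promoter drives a green fluorescent protein in corticotrope and melanotrope cells. The 3 ages were 37 days post fertilization (37 dpf), 5 months and 7 months, and the adults were male. Every fish had received the fluorescent dipeptide β-Ala-Lys-Nε-AMCA at 4.6 mM, 5 µl in juveniles and 10 µl in adults, 3 hours before dissection, so no untreated or non-transgenic group was compared. For each age 5 pituitaries were pooled, enriched for the neurohypophysis, the posterior lobe, and sorted through a gate that was not given into 2 plates of 384 wells for MARS-seq, which counts unique molecular identifiers (UMIs) near the 3′ end of polyadenylated RNA. The 2 plates of an age share 1 pool, so SDs over plates and all p-values between ages describe plates and not fish.

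Complement is a cascade of blood proteins that marks and lyses targets. In the classical pathway C1q, built from A, B and C chains, binds a target and its partner proteases cleave C4. In the alternative pathway factor D, the product of cfd, cleaves factor B, and in both routes later components such as C6 assemble the membrane attack complex, which clusterin, the product of clu, can hold back. In mammals the liver makes most circulating complement, tissue macrophages and microglia are a main source of C1q, and adipocytes are a main source of factor D. Pituicytes are the astroglia-like cells of the neurohypophysis, and the lobe also holds fibroblast-like stromal cells and macrophages.

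Of the wells, 1390 held at least 400 UMIs and were used, namely 311 and 339 of 37 dpf, 257 and 174 of 5 months, and 203 and 106 of 7 months (replicate 1, then replicate 2). The plates totalled between 105793 and 1178471 UMIs, and the median used well held between 675.5 and 2105. Wells were grouped by a few genes that are not complement genes. A pituicyte well had at least 5 UMIs of cyp26b1, which encodes a retinoic acid-degrading enzyme. A stromal well had at least 5 of the matrix genes mfap5, mgp and col1a2 together, and a macrophage well at least 5 of cd74a and cd74b, the invariant chain of antigen presentation. This gave 157 pituicyte, 109 stromal and 97 macrophage wells, 1024 other wells, and 3 wells that met more than 1 rule and entered no group. The stromal wells numbered 22, 18, 18, 15, 35 and 1 over the 6 plates in order of age, so 7-month stromal values rest on replicate 1. The pituicyte wells numbered 3, 6, 39, 28, 47 and 34. The 9 wells at 37 dpf entered no test between or within well groups, but they are part of the sums over all wells.

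The groups carried further markers of their labels, on lists that also hold the genes of the rules. Macrophage wells held UMIs of 22 to 23 of the 25 macrophage genes found, among them mpeg1.1, marco, lgmn and spi1b, and tyrobp was at 0. Some listed genes had few UMIs in order of age, namely csf1ra (4, 7 and 1), p2ry12 (2, 7 and 1), mrc1a (9, 0 and 0) and aif1l (0, 2 and 0). The more numerous other wells held UMIs of 22, 18 and 11 of the 25 macrophage genes in order of age. Levels are given as counts scaled to 1000000 UMIs (CPM) of the summed wells. Without cd74a and cd74b the macrophage list summed to 11569, 9708 and 11133 CPM in macrophage wells in order of age. In other wells it summed to 356, 2093 and 242 CPM. In macrophage wells 3, 3 and 1 of 6 neutrophil markers had a UMI at the 3 ages, and their summed level was 760 CPM at 37 dpf, 428 CPM at 5 months and 176 CPM at 7 months, against at most 44.3 CPM on any plate of the other groups. The summed lymphocyte markers reached at most 24.3 CPM on any plate. Stromal wells held 18 of 19 stromal genes at each age, led by col1a1a, col1a1b and col1a2, and other wells held 19, 17 and 18. Without mfap5, mgp and col1a2 the stromal list summed to 84311, 27474 and 44656 CPM in stromal wells. In other wells it summed to 1982, 1577 and 4837 CPM. At 37 dpf the stromal wells were col1a2 wells with almost no mfap5 (1 UMI) or mgp (7 UMIs). Pituicyte wells held UMIs of 11, 13 and 14 of the 19 pituicyte genes found at the 3 ages, and other wells of 16, 15 and 15. At 5 and 7 months the genes in pituicyte wells included vim, fabp7a, glulb, sox2 and s100b, while gfap, cyp26a1, her4.1, scn4ab and cntnap1 were at 0 there. Without cyp26b1, the gene of the rule, the list summed to 3745 CPM at 5 months and 4255 CPM at 7 months in pituicyte wells. Stromal wells had 1203 and 1554 CPM of it at these ages and other wells 666 and 1628 CPM. The few 37 dpf pituicyte wells had fabp7a at 11078 CPM, against 864 and 752 CPM at 5 and 7 months. They had slc1a2b, a brain glial glutamate transporter gene, at 4183 CPM, against 0 and 13.7 CPM at the later ages. Without cyp26b1 the list summed there to 4918 CPM in 3 wells of replicate 1 and 26981 CPM in 6 wells of replicate 2. In these 37 dpf wells cyp26a1, rx3, gfap, col4a6, dkk3b, lhx2b, scn4ab and cntnap1 were at 0, and sox2 had 1 UMI. The 9 hormone genes summed to 77.5, 22948 and 766 CPM in pituicyte wells in order of age. Of the 67 pituicyte wells of 5 months, 2 held 1% or more of their UMIs from these genes. In stromal wells the hormone genes summed to 0, 2406 and 120 CPM and in macrophage wells to 0, 1903 and 132 CPM. In other wells they summed to 2.05, 63491 and 6680 CPM. The part of this hormone RNA in the differences between well groups was not tested.

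The 7 genes fell into 3 patterns over these wells. The factor D gene cfd was a gene of pituicyte wells in adult fish. The C1q chains were genes of macrophage wells, and c4, c6 and clu were higher in stromal wells of adult fish. Over all ages 70.4% of the cfd UMIs lay in pituicyte wells (95% Clopper-Pearson interval 68.6% to 72.2%), which were 11.3% of the wells. At 37 dpf alone 7.33% of the cfd UMIs lay in pituicyte wells and 83.8% in other wells. Of the C1q UMIs, 91.2% for c1qa, 94.1% for c1qb and 92.3% for c1qc lay in the 97 macrophage wells. In adults 48.9% of c4, 48.0% of c6 and 50.7% of clu UMIs lay in stromal wells, and most of the remaining UMIs of these 3 genes lay in wells of the other group. At 5 months the 2 wells that met more than 1 rule held 5 c4, 13 c6 and 12 clu UMIs. Intervals on shares and levels cover counting error only.

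**Figure D1:**
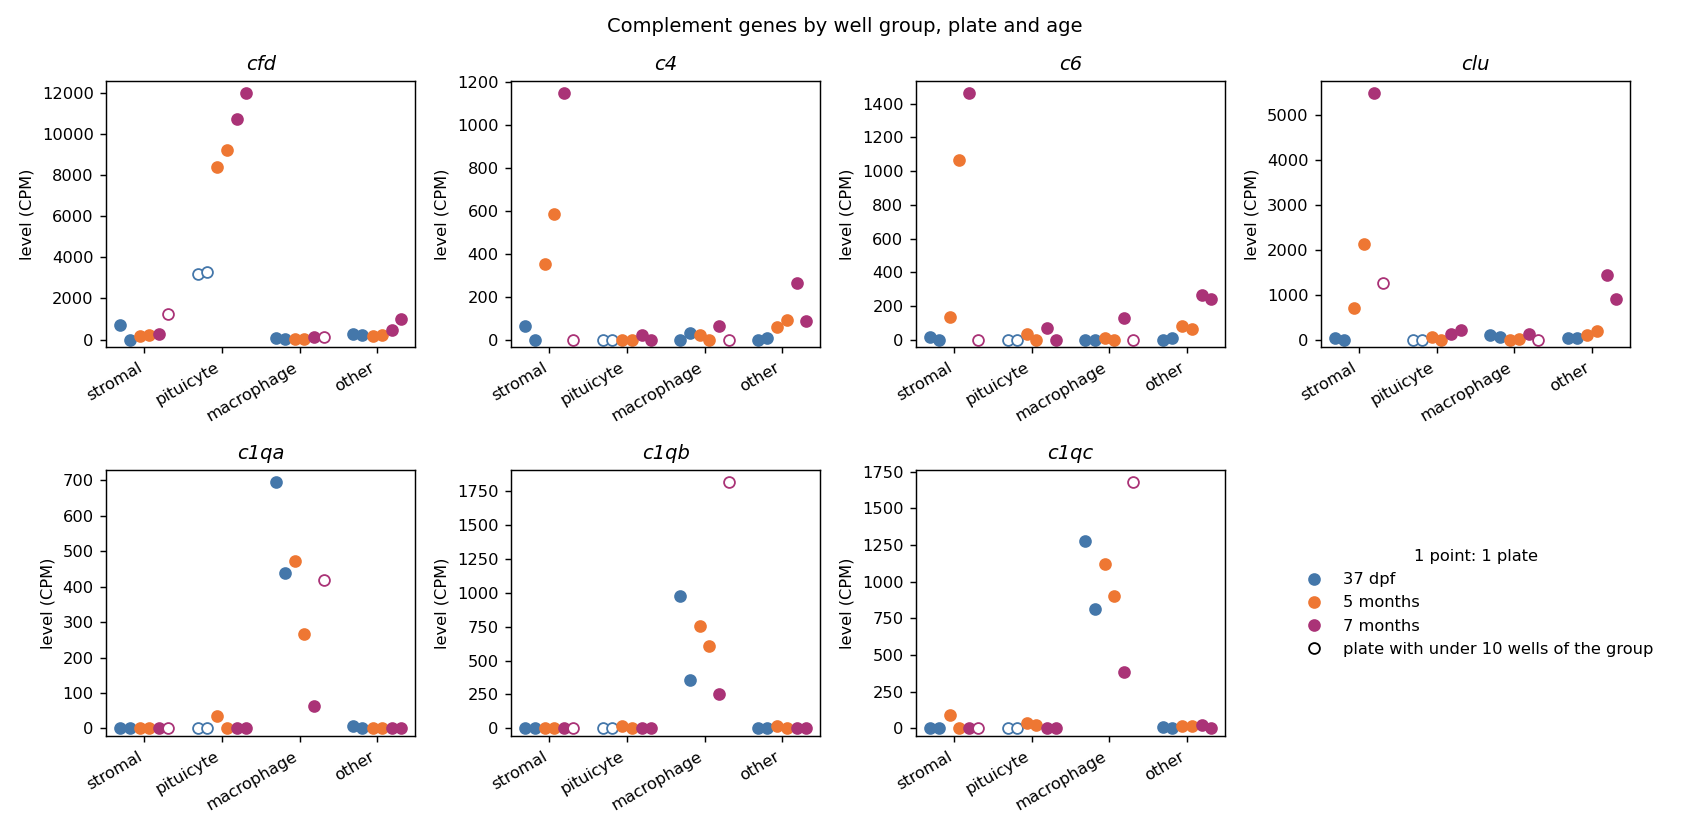
Level of each gene (CPM of the summed UMIs) in the 4 well groups, with 1 point per plate; open points mark plates with under 10 wells of that group. The 4 adult pituicyte points of cfd lie between 8383 and 11977 CPM, while c1qa, c1qb and c1qc points lie at or below 87.8 CPM outside macrophage wells.

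Factor D is the serine protease that cleaves factor B in the alternative pathway, and cfd was the gene with the most UMIs of the 7. In pituicyte wells the 37 dpf plates had 3182 and 3280 CPM, from 11 and 31 UMIs, the 5-month plates 8383 and 9219 CPM, and the 7-month plates 10747 and 11977 CPM. The adult mean was 10082 ± 1598 CPM (SD, n = 4 plates), and no plate of another group came near it. In stromal wells the 37 dpf plates had 694 and 0 CPM, the 5-month plates 176 and 213 CPM, and the 7-month plate with 35 stromal wells 292 CPM. Of the 45 UMIs in 37 dpf stromal wells 27 came from 1 well, which also had krt5 above 1% of its UMIs. Macrophage wells held between 24.3 and 140 CPM and other wells between 160 and 999 CPM. Summed over adults, the level in pituicyte wells was 38.8-fold that of stromal wells (counting interval 25.3 to 62.9), 177-fold that of macrophage wells (93.1 to 388) and 32.1-fold that of other wells (27.4 to 37.8). By age the fold over other wells was 48.1 at 5 months (37.9 to 61.7) and 17.4 at 7 months (14.0 to 21.7). The fold over macrophage wells was 204 at 5 months (93.4 to 558) and 84.98 at 7 months (29.0 to 413), where macrophage wells held 3 cfd UMIs.

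Within adult pituicyte wells cfd was common but uneven. At 5 months 60 of 67 wells (89.6%) and at 7 months 69 of 81 wells (85.2%) had a cfd UMI, with 0, 9 and 57 UMIs per well at 5 months and 0, 6 and 51 at 7 months (lowest, median and highest). Thinned to 400 UMIs per well, the shares were 77.6% and 77.4%, close to each other. Hormone wells, in which at least 10% of UMIs came from pituitary hormone genes, served as cells that should lack the gene. The 5-month pituicyte wells had a median depth of 1315 UMIs, and of 32 hormone wells of that age, with a median depth of 3640 UMIs, 6 had 1 cfd UMI each, a thinned share of 1.88%. The level followed the count of cyp26b1 in adult wells. It was 196 CPM in 403 wells with no cyp26b1 UMI, 336 CPM in 188 wells with 1 to 4, 6366 CPM in 74 wells with 5 to 19 and 11594 CPM in 75 wells with 20 or more. At the limit of the rule, the 10 wells of any age with 5 cyp26b1 UMIs had 3001 CPM, and the 7 wells with 4 had 832 CPM.

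Sums per pool and well group were compared with edgeR's quasi-likelihood test with the pool as a block and Benjamini-Hochberg adjustment over 11259 genes. The prior degrees of freedom of that fit were infinite, so p-values between well groups rest on a spread shared over genes and not on each gene's own spread between pools. Pituicyte sums came from the 5- and 7-month pools only. An alternative without either pool keeps 1 such sum, so it cannot show agreement between pools for pituicyte wells. In pituicyte wells against the mean of the other 3 groups, 1 of the 7 genes was higher and 2 were lower. Over all genes tested 2.62% were called, 2.12% as higher and 0.497% as lower. The median log2 difference of the 7 genes was -1.89, against 0.32 over all genes. The log2 difference of cfd was 5.74 ± 0.33 (SE, adjusted p = 4.7e-65), and it stayed called in all 12 alternatives. The 2 lower genes were c4, with 1 UMI in 148 adult pituicyte wells (adjusted p = 0.0027), and clu, at a log2 difference of -2.69 ± 0.59 (adjusted p = 0.00052). Lower than the mean of 3 groups need not be lower than each. In adults clu stood at 86.3 CPM in pituicyte wells, against 18.4 CPM in macrophage, 435 CPM in other and 3381 CPM in stromal wells. With no pool left out, the edgeR call of c4 was lost in wells of at least 1000 UMIs (adjusted p = 0.117). With 1 UMI for stromal wells both calls were lost in edgeR (adjusted p = 0.117 for c4 and 0.115 for clu). The call of clu was also lost with DESeq2 (adjusted p = 0.255). Without the 7-month pool both calls were lost, and without the 5-month pool that of c4. For c6 the log2 difference was -2.38 ± 0.86 (adjusted p = 0.143).

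At 37 dpf most cfd UMIs lay elsewhere. Of 573 UMIs at that age, 42 lay in pituicyte wells, 45 in stromal wells, 6 in macrophage wells and 480 in other wells. A description made after the values were seen showed that 442 of them (77.1%) lay in 45 wells of the other group with krt5, an epithelial keratin gene, at 1% or more of their UMIs. A stromal well, the one with 27 cfd UMIs, and a macrophage well with 3 also reached that krt5 share. In the krt5 wells of the other group cfd stood at 2776 CPM on replicate 1 and 2279 CPM on replicate 2, and 40 of the 45 wells (88.9%) had a UMI at a median depth of 3744 UMIs. In 195 erythroid wells of the same plates (at least 3 UMIs of slc4a1a and alas2, median depth 6348 UMIs) 9 wells (4.62%) had a cfd UMI, at 8.88 CPM. The krt5 wells and the pituicyte wells thus each held cfd well above the erythroid wells at 37 dpf, and krt5 was at 0 UMIs in adult pituicyte wells and at 6 UMIs in the 37 dpf ones. No krt5 well was found at 5 or 7 months.

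**Figure D2:**
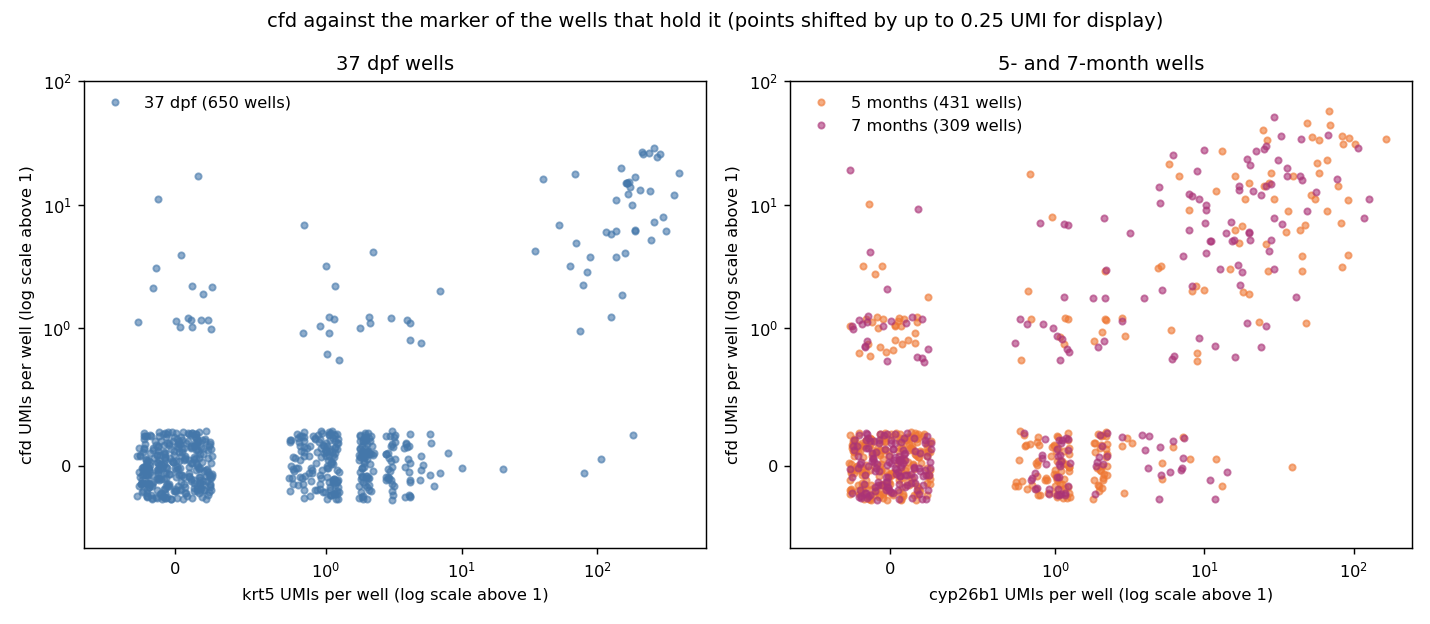
UMIs of cfd per well against krt5 UMIs in the 650 wells of 37 dpf (left) and against cyp26b1 UMIs in the 431 wells of 5 months and 309 wells of 7 months (right); axes are logarithmic above 1 and points are shifted slightly for display. At 37 dpf 43 of 47 wells with 20 or more krt5 UMIs had cfd, and in adults 74 of 75 wells with 20 or more cyp26b1 UMIs had it.

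C1q starts the classical pathway, and its A, B and C chains are encoded by c1qa, c1qb and c1qc, which lie next to each other, in the order c1qb, c1qc and c1qa, in the RefSeq gene table of the zebrafish assembly GRCz12tu. Each chain was nearly confined to macrophage wells. In those wells c1qa had 696 and 439 CPM on the 37 dpf plates, 474 and 267.5 CPM on the 5-month plates and 64.2 and 419.8 CPM on the 7-month plates. The c1qb values were 974 and 358 CPM on the 37 dpf plates, 756 and 608 CPM on the 5-month plates and 257 and 1819 CPM on the 7-month plates. For c1qc the plates had, in the same order, 1279.9 and 813 CPM, 1119 and 899.7 CPM, and 385 and 1679 CPM. The highest and the lowest plate of c1qb and c1qc were both 7-month plates, with 4 and 10 macrophage wells, so the ages overlapped. No stromal well of 109 had a c1qa or c1qb UMI, and 2 had c1qc. Against stromal wells of all ages the level in macrophage wells was at least 26.1-fold higher for c1qa and at least 39.8-fold higher for c1qb, taking 3 counts over the stromal wells as the limit. Against other wells it was 122-fold for c1qa (62.2 to 274), 168-fold for c1qb (89.1 to 356) and 149-fold for c1qc (91.1 to 259), with 9, 10 and 17 UMIs in 1024 other wells. At the limit of the macrophage rule, no c1qc UMI was seen in the 2 wells with 5 UMIs of cd74a and cd74b or in the 3 wells with 4.

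In macrophage wells against the mean of the other 3 groups, 3 of the 7 genes were higher and 3 were lower. Of all genes 7.05% were called, 4.25% as higher and 2.81% as lower. The median log2 difference was -0.92 over the 7 genes and -0.41 over all genes. The edgeR log2 differences were 7.03 ± 0.76 for c1qa (adjusted p = 7.4e-18), 7.95 ± 0.69 for c1qb (adjusted p = 1.7e-27) and 6.28 ± 0.54 for c1qc (adjusted p = 1.1e-28), and all 3 stayed called in all 12 alternatives. Since the stromal sums of c1qa and c1qb held 0 UMIs, their fitted values are no bounds on the fold. The lower members were cfd, at -4.17 ± 0.40 (adjusted p = 1.6e-22), c6, at -2.75 ± 0.88 (adjusted p = 0.030), and clu, at -1.71 ± 0.57 (adjusted p = 0.042). The call of c6 was lost in 7 of the 12 alternatives and that of clu in 10. Without the 5-month pool both had an adjusted p of 1, and in wells of at least 1000 UMIs the difference of clu was 0.89 (adjusted p = 0.974). Without the 7-month pool the adjusted p was 0.188 for c6 and 1 for clu.

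The chains were found together in single wells. Of 97 macrophage wells, 37 had UMIs of all 3 chains, 20 of 2, 20 of 1 and 20 of none. A well with all 3 had a median of 3451 UMIs and a well with none 1112 UMIs, so the count of chains moved with depth. Of the 50 wells with c1qa 46 (92.0%) also had c1qc, and of the 53 wells with c1qb 46 (86.8%) did. Of all 97 macrophage wells 68 had c1qc. A C1q UMI of any chain was found in 17 of 20 and 19 of 24 wells of the 37 dpf plates, 25 of 27 and 9 of 12 of the 5-month plates, and 4 of 10 and 3 of 4 of the 7-month plates. In the 77 wells with C1q, cd74a stood at 14447 CPM, against 16930 CPM in the 20 without it, and mpeg1.1 at 317 CPM, against 589 CPM. The scavenger receptor gene marco stood at 450.1 CPM in wells with C1q, against 73.6 CPM (2 UMIs) in wells without it. The neutrophil markers stood at 549 CPM in wells with C1q, against 368 CPM in wells without it. The part of depth and of neutrophil RNA in these differences was not tested. At 37 dpf 19 of 44 macrophage wells had c1qa, 18 had c1qb and 30 had c1qc at a median depth of 2084 UMIs, against 5, 3 and 5 of 195 erythroid wells at a median depth of 6348 UMIs.

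Of the C1q UMIs of macrophage wells, c1qa made up 52 of 205 at 37 dpf (95% interval 19.6% to 31.9%), 58 of 306 at 5 months (14.7% to 23.8%) and 4 of 39 at 7 months (2.87% to 24.2%). The shares of c1qc were 46.8%, 48.4% and 46.2%. The intervals of neighbouring ages overlap for each chain.

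C4 is the component that C1 cleaves, and c4 was a sparse gene with 147 UMIs in all. In stromal wells the 37 dpf plates had 61.7 and 0 CPM, the 5-month plates 351 and 585 CPM, and the 7-month plate with 35 stromal wells 1145 CPM, from 4, 0, 8, 11 and 47 UMIs. The single stromal well of the other 7-month plate had none. Adult stromal plates therefore lay above both 37 dpf plates, apart from that single well. All 4 c4 UMIs of the 37 dpf stromal wells came from 1 well. At 7 months 17 of 36 stromal wells had c4, and 1 of them held 18 of the 47 UMIs. In other wells the same gene had 0 and 5.63 CPM on the 37 dpf plates, 58.7 and 89.0 CPM on the 5-month plates and 263 and 86.9 CPM on the 7-month plates. In pituicyte wells 1 UMI was seen at all ages, and in macrophage wells 5. A paralog, c4b, is counted in its own row, named si:dkey-8k3.2 and matched to c4b by a synonym in the RefSeq gene table. Reads shared between the copies could have been split or lost, so the level of c4 is uncertain to that extent.

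C6 is a terminal component that joins the membrane attack complex. In stromal wells the 37 dpf plates had 15.4 and 0 CPM, the 5-month plates 132 and 1064 CPM, and the 7-month plate with 35 stromal wells 1462 CPM. The adult plates lay above the 37 dpf plates, apart from the single stromal well of 7-month replicate 2, which had none, and the 5-month plates lay far apart. Other wells held 0 and 10.3 CPM, 82.2 and 63.6 CPM, and 263 and 239 CPM at the 3 ages. In pituicyte wells c6 had 5 UMIs and in macrophage wells 3.

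Clusterin is a secreted chaperone that also limits the membrane attack complex, and clu had 630 UMIs. In stromal wells the 37 dpf plates had 46.2 and 0 CPM, the 5-month plates 703 and 2129 CPM, and the 7-month plate with 35 stromal wells 5482 CPM, and these plates did not overlap between the ages. The single stromal well of 7-month replicate 2 had 1 clu UMI, or 1264 CPM, which lies between the 5-month plates. Other wells held 24.8 and 38.5 CPM on the 37 dpf plates, 102 and 184 CPM on the 5-month plates and 1433 and 912 CPM on the 7-month plates, without overlap between the ages. In pituicyte wells clu was at 51.1 and 0 CPM on the 5-month plates and 133 and 214.5 CPM on the 7-month plates, and macrophage wells between 0 and 128 CPM.

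Summed over adults, the level in stromal wells was 7.41-fold that of other wells for c4 (counting interval 5.14 to 10.7), 8.10-fold for c6 (5.81 to 11.3) and 7.78-fold for clu (6.53 to 9.27). By age it was 10.1-fold for clu at 5 months (6.84 to 14.9) and 4.25-fold at 7 months (3.49 to 5.18). For c4 it was 6.51-fold at 5 months and 5.39-fold at 7 months, and for c6 7.37-fold at 5 months and 5.61-fold at 7 months. In stromal wells against the mean of the other 3 groups, 3 of the 7 genes were higher and 1 was lower, and 3.23% of all genes were called, 2.71% as higher and 0.524% as lower. The median log2 difference was -1.09 over the 7 genes and -0.51 over all genes. The edgeR log2 differences were 4.22 ± 0.60 for c4 (adjusted p = 7.9e-10), 3.71 ± 0.56 for c6 (adjusted p = 5.6e-09) and 3.34 ± 0.39 for clu (adjusted p = 5.4e-15). The fit includes the 37 dpf pool and takes 1 group difference for all ages. At 37 dpf clu stood at 31.4 CPM in stromal, 32.3 CPM in other and 82.1 CPM in macrophage wells. There c6 stood at 10.5 CPM (1 UMI) in stromal and 5.64 CPM (11 UMIs) in other wells. In the same groups c4 stood at 41.9 CPM (4 UMIs, all in 1 well) and 3.08 CPM (6 UMIs). All 3 differences stayed called in all 12 alternatives. The difference of cfd was -1.09 ± 0.34 (adjusted p = 0.0466), and its call was lost in 8 of them, also without the 5-month or the 7-month pool. Of the other 3 groups only pituicyte wells had more cfd than stromal wells. Over all ages it stood at 369 CPM in stromal, 9327 CPM in pituicyte, 259 CPM in other and 57.6 CPM in macrophage wells. Set against pituicyte wells alone, where 2.08% of genes were called, 1.21% as higher and 0.87% as lower, 3 of the 7 were higher and 1 was lower. On the log2 scale c4 differed by 6.66 ± 1.1, c6 by 4.57 ± 0.86, clu by 4.53 ± 0.64 and cfd by -5.12 ± 0.44 (largest adjusted p = 2.4e-05, for c6). Without the 7-month pool the adjusted p was 0.31 for c6 and 0.0696 for clu in that contrast, and without the 5-month pool 0.0566 for c6.

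Most adult stromal wells had at least 1 of the 3 genes, but not on each plate. They were 8 of 18 and 11 of 15 wells on the 5-month plates, and 28 of 35 and 1 of 1 on the 7-month plates. Of the 69 adult stromal wells 15 had UMIs of c4, c6 and clu, 14 of 2, 19 of 1 and 21 of none. Of the 27 with c4, 21 (77.8%) had clu, and of the 29 with c6, 21 (72.4%) had clu. Of all 69 wells 36 had clu. At 5 months 10 of 33 stromal wells had c4, 10 had c6 and 14 had clu at a median depth of 1148 UMIs, against 1, 0 and 3 of 32 hormone wells at a median depth of 3640 UMIs. Adult wells with no UMI of the stromal genes had clu at 148 CPM (507 wells), those with 1 to 4 at 731 CPM (162 wells) and those with 5 to 19 at 4113 CPM (57 wells). The 14 adult wells with 20 or more stromal UMIs were not higher, at 866 CPM for clu and 137 CPM for c6, with 3 wells holding each.

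**Figure D3:**
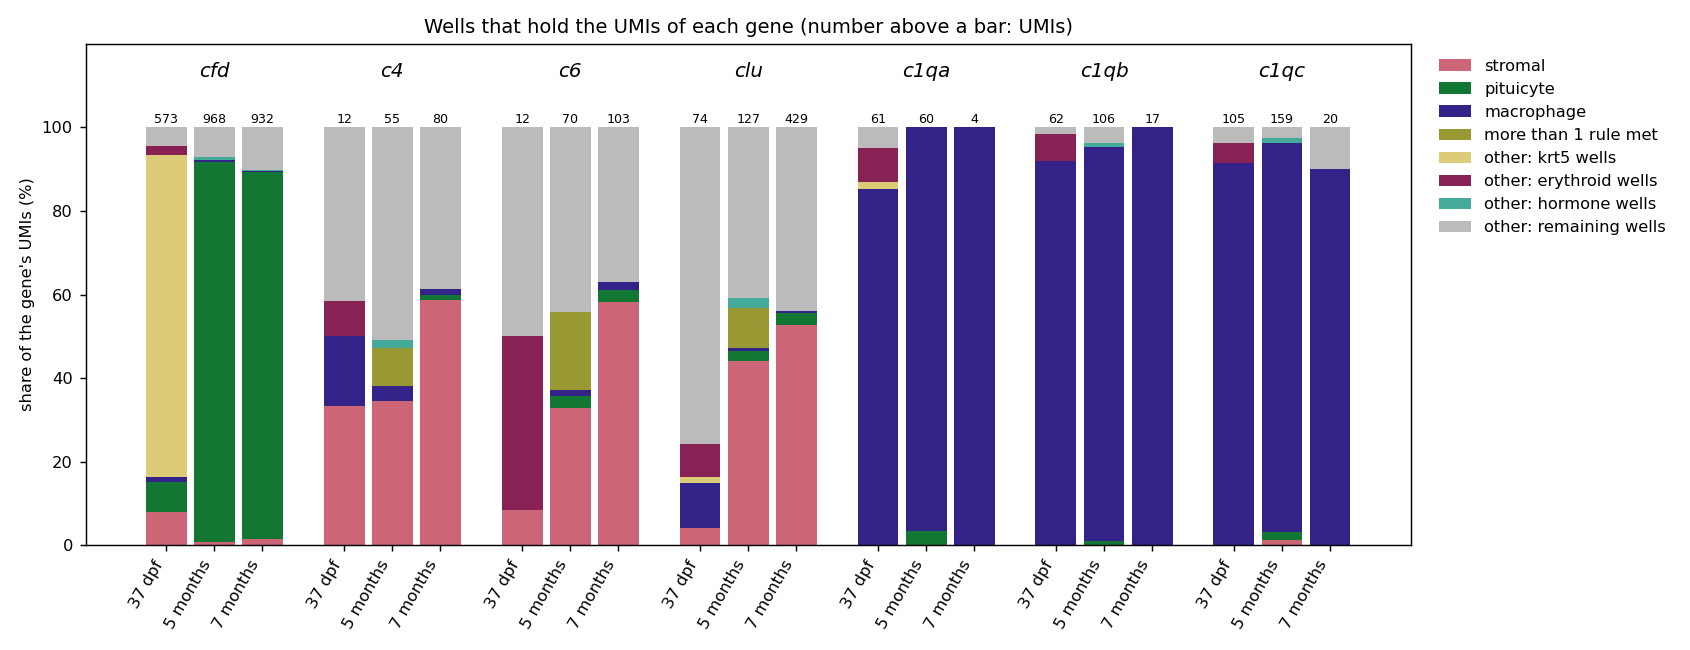
Share of each gene's UMIs (%) that lay in each kind of well, by age, with the number of UMIs above each bar; krt5, erythroid and hormone wells are subsets of the other group. Pituicyte wells hold 879 of 968 cfd UMIs at 5 months and 820 of 932 at 7 months, and krt5 wells 442 of 573 at 37 dpf.

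The ages were compared within a well group where both plates of both ages had at least 10 wells of it. In stromal wells at 5 months against 37 dpf, clu rose, and it was the only 1 of the 4 members tested that was called. Of 1651 genes tested 1.57% were called, 0.666% as higher. Its log2 change was 5.28 ± 0.81 (edgeR, adjusted p = 0.0107), and it was lost in wells of at least 1000 UMIs (adjusted p = 0.503) and without 7-month replicate 1, which shares the fit (adjusted p = 0.0677). The changes of c4, 3.36 ± 0.93 (adjusted p = 0.139), and c6, 5.35 ± 1.26 (adjusted p = 0.0868), did not pass, although both 5-month plates lay above both 37 dpf plates, and they passed in 6 and 8 of the 13 alternatives. With c6 at 1 UMI and clu at 3 UMIs in the 40 stromal wells of 37 dpf, these fitted values are no bounds. The count ratio of clu, 56 to 3 UMIs, corresponds to 1347 and 31.4 CPM.

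The stromal wells of the ages were not alike in other genes. At 37 dpf 36 of 40 had neither mfap5 nor mgp, against 19 of 33 at 5 months and 17 of 36 at 7 months, and col1a2 stood at 30662, 9262 and 13818 CPM in that order of age. Among stromal wells with no UMI of mfap5 or mgp alone, clu stood at 34.8 CPM at 37 dpf (7.18 to 102), 1090 CPM at 5 months (698 to 1622) and 2963 CPM at 7 months (2226 to 3866). In the same wells c4 stood at 46.4, 409 and 1866 CPM, and c6 at 11.6, 227 and 1591 CPM. The order of the ages was the same among these wells, a description chosen after the values were seen. They still differed in col1a2, at 32276, 12673 and 15583 CPM. In stromal wells with mfap5 or mgp, c4 was alike at 5 months (512 CPM, 245 to 941) and 7 months (551 CPM, 293 to 942). There c6 stood at 921 and 1313 CPM and clu at 1637 and 7286 CPM. The 4 such wells of 37 dpf held no UMI of these genes. The part of the kind of stromal well in the age differences was not tested.

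In pituicyte wells at 7 months against 5 months the log2 change of cfd was 0.33 ± 0.25 (edgeR, adjusted p = 0.810), and that of clu 2.36 ± 0.93 (adjusted p = 0.696). The summed hormone genes were lower in these wells at 7 months, as given above. The 5-month sum leaned on 2 of 67 wells, the only ones with 1% or more of UMIs from hormone genes. In the pituicyte wells with under 1% of UMIs from hormone genes, a limit chosen after the values were seen, cfd stood at 11516 CPM at 7 months (79 of 81 wells), against 9263 CPM at 5 months (65 of 67 wells). No gene of 1766 was called there by edgeR, a share of 0%, with 116 at an unadjusted p below 0.05 and 1 called by DESeq2. In macrophage wells at 5 months against 37 dpf no member of 5 tested was called, where 1.40% of 2351 genes were. The log2 changes were -0.36 ± 0.45 for c1qa, 0.29 ± 0.43 for c1qb and 0.16 ± 0.31 for c1qc (adjusted p of 0.914, 0.916 and 0.935).

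Sums over all wells of a plate also reflect how many wells of each kind it held. At 5 months against 37 dpf all 7 rose, where 26.5% of 11304 genes were called and 12% were higher. The median log2 change was 2.40 over the 7 genes and -0.15 over all genes. The log2 changes were 2.40 ± 0.33 for cfd, 3.83 ± 0.63 for c4, 4.17 ± 0.59 for c6 and 2.55 ± 0.48 for clu (edgeR, largest adjusted p = 0.00014). For c1qa, c1qb and c1qc they were 1.49 ± 0.47, 2.28 ± 0.47 and 2.13 ± 0.40 (adjusted p of 0.016, 0.00044 and 0.00012). With DESeq2 c1qa was not called (adjusted p = 0.173). The plates of these ages did not overlap for any of the 7, with cfd at 1234 and 1629 CPM on the 5-month plates and 318 and 221 CPM on the 37 dpf plates. The call of clu was lost without 5-month replicate 2 (adjusted p = 0.139), those of c1qa and c1qb without 5-month replicate 1 (0.582 and 0.0745), and that of c1qa also without either 37 dpf plate (0.0564 and 0.152). When the erythroid wells were left out, a choice made after seeing the data, the adjusted p was 0.757 for c1qa, 0.201 for c1qb, 0.177 for c1qc and 0.0888 for clu, and cfd, c4 and c6 stayed called. Erythroid wells were 195 of 650 wells at 37 dpf and 0 of 740 in adults.

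At 7 months against 37 dpf 4 of the 7 rose, where 23.8% of genes were called and 8.65% were higher. They were cfd, by 3.27 ± 0.34, c4, by 4.98 ± 0.61, c6, by 5.39 ± 0.58, and clu, by 4.81 ± 0.50 (edgeR log2 changes, largest adjusted p = 1.7e-07). All stayed called in all 14 alternatives except c4, with an adjusted p of 0.114 without 7-month replicate 1. The C1q genes were not called, at -1.37 ± 0.79, 0.75 ± 0.60 and 0.21 ± 0.50. The median change was 3.27 over the 7 genes and -0.49 over all genes. Pituicyte wells were 1.38% of the wells at 37 dpf, 15.5% at 5 months and 26.2% at 7 months, and stromal wells 6.15%, 7.66% and 11.7%. In these sums a larger share of wells of a kind and more RNA of the gene per well cannot be told apart.

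At 7 months against 5 months 1 member rose and 2 fell, where 0.955% of genes were called, 0.230% as higher and 0.725% as lower. The edgeR log2 change of clu was 2.25 ± 0.45 (adjusted p = 0.0047), and c1qa fell by 2.86 ± 0.74 (adjusted p = 0.0491) and c1qc by 1.92 ± 0.48 (adjusted p = 0.036). Each was lost without 5-month replicate 1 (adjusted p of 0.478, 0.692 and 0.61), without 5-month replicate 2 (0.163, 0.148 and 0.195) and without 7-month replicate 1 (0.491, 0.473 and 0.402), and c1qa also without 7-month replicate 2 (0.0624). With DESeq2 none of the 3 was called (adjusted p of 0.0833, 0.14 and 0.0882). The calls of c1qa and c1qc were also lost with scaling to library size alone (0.119 and 0.151), with filterByExpr (0.109 and 0.105) and in wells of at least 1000 UMIs (0.19 and 0.21). The values of cfd (0.87 ± 0.31), c4 (1.15 ± 0.51), c6 (1.22 ± 0.47) and c1qb (-1.52 ± 0.56) were not called, and c4 and c6 were -1.39 and -0.25 without 7-month replicate 1. Without that plate cfd passed (1.07, adjusted p = 0.049), and without 7-month replicate 2 c4 (1.93, adjusted p = 0.0308) and c1qb (-3.09, adjusted p = 0.0472) passed. With scaling to library size alone cfd passed (1.36, adjusted p = 0.0027), 109 of all genes were higher and 54 lower, against 26 and 82, and the median change of all genes was 0.06 in place of -0.24. The 7 genes had a median of 0.87.

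**Figure D4:**
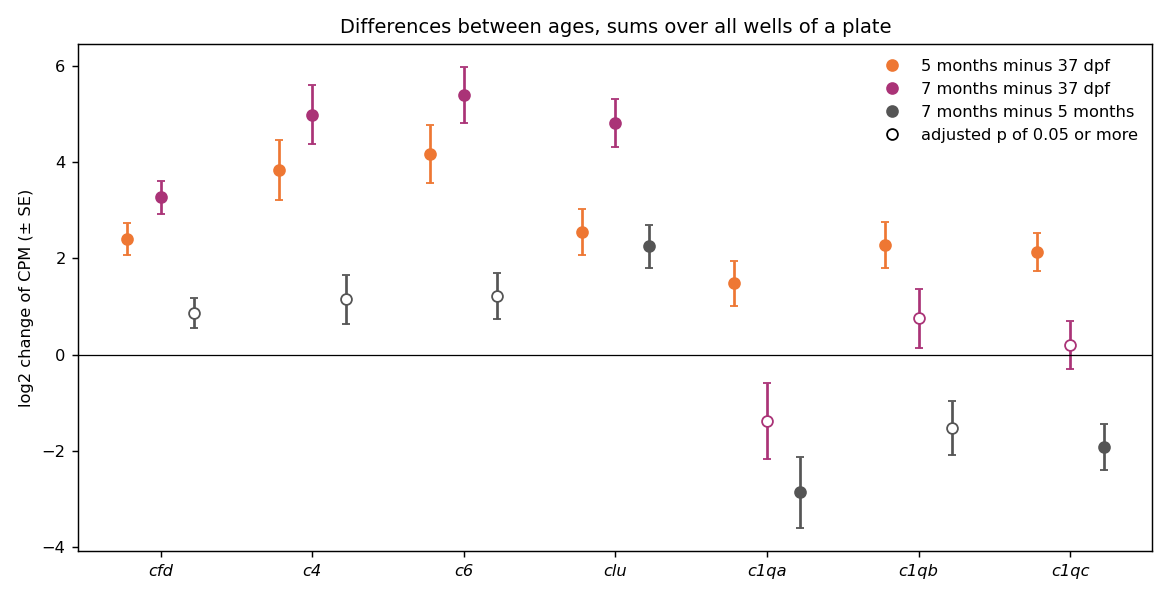
Differences between ages in sums over all wells of a plate (log2 change of CPM with its SE, edgeR), with filled points at an adjusted p below 0.05. The 4 genes cfd, c4, c6 and clu lie above 0 in each comparison, and c1qa, c1qb and c1qc lie below 0 at 7 months against 5 months.

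Other features of the plates moved with age. A summed list of early-response and heat-shock genes that often mark dissociation stress had 7532 and 7683 CPM on the 37 dpf plates, 17862 and 16403 CPM on the 5-month plates and 34701 and 36413 CPM on the 7-month plates. The 4 adult plates were sequenced in 1 batch and 37 dpf replicate 2 in another, and a batch for 37 dpf replicate 1 was not given in the table used here. Age and sequencing batch cannot be told apart against 37 dpf, and the part of dissociation in the age differences was not tested.

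The genes most like each member were found by the correlation of log2 CPM over 20 plate and group sums, which share plates and depth and are given as a description. For c4 and c6 each was the other's most similar gene of 5213 (Pearson r = 0.93), and clu had c6 (r = 0.92) and c4 (r = 0.90) as its most similar. For cfd they were mdkb, a midkine growth factor gene, atp1a1b, a sodium pump subunit gene, and rgs5a, a regulator of G-protein signalling gene (r = 0.95 each). For c1qa they were ccl34a.4, m17 and samsn1a, for c1qb fcer1gl, il10ra and si:ch211-102c2.4, and for c1qc lgals3bpb, coro1a and si:dkey-5n18.1, with r between 0.98 and 0.99.

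Of a wider list of 59 complement symbols, 44 had a row, 16 of those held 0 UMIs and 11 held at least 10. Each C3 row held at most 3 UMIs, c5 held 6 and cfb 2. The factor B-like gene cfbl, matched by a synonym to the row zgc:158446, held 13, of which 9 lay in macrophage wells. In stromal wells 1 of the 11 was higher, where 2.71% of all genes were higher. It was c7a, a neighbour of C6 in the membrane attack complex, with 15 of its 25 UMIs there (edgeR log2 difference 5.17 ± 1.08, adjusted p = 0.00013). The c4b row had 10 UMIs in stromal wells and 32 in other wells, and its difference of 3.39 ± 1.26 did not pass (adjusted p = 0.156). In pituicyte wells 1 of the 11 was higher and 1 lower, where 2.12% of all genes were higher and 0.497% lower. The gene cd59, which encodes a membrane inhibitor of the attack complex, was higher by 3.08 ± 0.93 (adjusted p = 0.038). Of its 99 UMIs 16 lay in pituicyte wells and 78 in other wells, and 75 came from 37 dpf. The properdin gene cfp, which stabilizes the alternative pathway convertase, was lower in pituicyte wells by 4.42 ± 0.94 (adjusted p = 0.00032), with 2 UMIs.

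In macrophage wells 2 of the 11 were higher and 1 lower, where 4.25% of all genes were higher and 2.81% lower. There cfp was higher by 3.53 ± 0.54 (adjusted p = 5.6e-09), with 130 of its 301 UMIs. The integrin gene itgb2, which encodes a chain of complement receptors, was higher by 5.54 ± 0.87 (adjusted p = 1.4e-08), with 46 of its 60 UMIs. The collectin gene colec12 was lower by 2.74 ± 0.91 (adjusted p = 0.040). In sums over all wells at 5 months against 37 dpf, 4 of the 11 were higher and 2 lower, where 12% of all genes were higher and 14.5% lower. At 7 months against 37 dpf 1 was higher and 1 lower, where 8.65% of all genes were higher and 15.1% lower. The higher gene at both ages was the c4b row, at 3.11 ± 0.84 (adjusted p = 0.0055) and 4.63 ± 0.77 (adjusted p = 2.9e-05), and cfp, calr and itgb2 were the others at 5 months. The lower gene at both ages was c1qbp, at -2.34 ± 0.37 and -2.55 ± 0.41 (largest adjusted p = 1.5e-05), with colec12 at 5 months. Of the 757 c1qbp UMIs 697 lay in other wells, and 691 came from 37 dpf. Between 7 and 5 months edgeR called none of the 11, where 0.955% of genes were called, and DESeq2 none either; calr, cfp and the c4b row had an unadjusted edgeR p below 0.05.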

How the data were processed

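Single cells of zebrafish pituitary pools were counted by MARS-seq. The authors deposited 1 table of raw UMI counts per plate, with genes in rows and wells in columns. Per the submitters' processing notes, danRer10, bcl2fastq 2.15.0.4 and Seurat 3.1.5 were used; the aligner and gene annotation are not given in the sources used here. From these counts, wells of at least 400 UMIs were grouped by marker UMIs (at least 5). Counts were summed per pool and well group (at least 10 wells) or per plate. Sums were tested with edgeR 4.0.16 (R 4.3.3; TMM scaling, quasi-likelihood test, at least 10 UMIs over the sums, Benjamini-Hochberg adjustment, threshold 0.05), with DESeq2 1.42.0 as an alternative. Ages within a well group were fitted on plate sums. The test was also run on simulated counts with the same spread for every gene. That run cannot show how the p-values hold where spreads differ between genes. Intervals are exact Poisson or Clopper-Pearson at 95% and cover counting error only. Thinned shares give the chance of a UMI among 400 drawn from each well. Doublets were not called, and no mitochondrial filter was applied. Alternatives changed the scaling, the gene filter, the well minimum, the marker minimum and the wells or pools included. The named genes are the 7 members, the 3 genes most like each, and those of the wider list that passed a test or are named for their count. The members and lists were chosen with earlier results of these data known. The krt5 wells, the erythroid rule, the split of pituicyte wells by hormone UMIs, the split of stromal wells by mfap5 and mgp and some sets of left-out wells were added after seeing the data.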

Additional observations from a re-analysis of the deposited data

Results flagged for a closer look

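The level of clu at 5 months minus 37 dpf was 1392.44 CPM in stromal wells and -76.0246 CPM in macrophage wells, and the plates of these ages did not overlap in either group. In other wells the difference was 111.403 CPM, also opposite in direction to macrophage wells. These values rest on few UMIs in macrophage wells (1 at 5 months and 8 at 37 dpf), and the difference between the groups was not tested.

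The 914 wells with under 400 UMIs entered no comparison. They held 121 cfd UMIs in 56 wells and 42 clu UMIs in 20 wells, above the limit of 3 counts. Of the cfd UMIs 9 came from wells of 37 dpf, 17 from 5 months and 95 from 7 months. For clu the numbers were 21, 0 and 21, and no cell type was assigned to these wells.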

How the results depend on the processing

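Of 60 changes tested for the 7 genes, 32 were called, 16 of them in every alternative run, and 16 lost the call in at least 1. The mean levels in the wells where each gene was highest moved by less than 1 SD over plates in the 4 alternatives run for them. That limit is loose, since the SD can be about as large as the mean. In stromal wells clu had 2771 ± 2454 CPM over 3 adult plates, so a large change could stay below it. Counts of called genes were judged by a ratio and not by that SD, so counts and levels cannot be compared. The counts also moved with the settings, and the cause was not tested. With DESeq2 they were 194 for stromal wells against the other groups, 122 for pituicyte wells, 468 for macrophage wells, 141 for stromal against pituicyte wells, 1556 at 5 months and 1641 at 7 months against 37 dpf, 1 at 7 against 5 months in pituicyte wells and 7 at 5 months against 37 dpf in macrophage wells. In wells of at least 1000 UMIs, the first 4 were 234, 124, 469 and 127, the stromal age count was 1 and the pituicyte age count 10. With 1 UMI for stromal wells the pituicyte count was 193 and the stromal age count 1035, and with 3 UMIs for every group the stromal age count was 121 and the pituicyte age count 4. With no filter the counts were 169 at 7 against 5 months, 68 in stromal, 7 in pituicyte and 53 in macrophage wells; with filterByExpr the last 3 were 59, 3 and 17. Scaling to library size gave 163 at 7 against 5 months, and leaving out stromal wells 164. Without erythroid wells 977 genes were called at 5 months and 921 at 7 months against 37 dpf.

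Leaving out 1 pool gave 123 to 293 genes for stromal wells, 49 to 383 for pituicyte, 222 to 599 for macrophage and 42 to 310 for stromal against pituicyte wells. Leaving out 1 plate gave 1307 to 3224 genes at 5 months and 1324 to 2460 at 7 months against 37 dpf, and 18 to 138 at 7 against 5 months. Within well groups it gave 18 to 117 in stromal, 1 to 28 in pituicyte and 0 to 63 in macrophage wells.

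Some log2 values changed sign, all but clu without having been called. With 1 UMI for stromal wells, c1qa was -4.58 in pituicyte wells, c4 0.039 in macrophage wells, and c1qa, c1qb and c1qc 2.79, 4.22 and 0.35 in stromal against pituicyte wells. The same setting gave 0.74 for cfd in stromal wells and 0.50 for c1qa in macrophage wells at 5 months against 37 dpf. With 3 UMIs for every group, c1qc was 0.086 in stromal against pituicyte wells, and the age values were 1.51 for cfd in stromal and 0.035 for c1qa in macrophage wells. DESeq2 gave -0.16 for c1qa in pituicyte wells, and wells of at least 1000 UMIs 0.89 for clu in macrophage wells. Library-size scaling gave -0.040 for c1qc in macrophage wells at 5 months against 37 dpf. Without erythroid wells c1qb and c1qc were -0.25 and -0.84 at 7 months against 37 dpf. Leaving out 1 pool gave -2.77 to 1.64 for c1qa in pituicyte wells, -1.86 to 0.79 for c4 in macrophage wells and -0.45 to 0.26 for c1qc in stromal against pituicyte wells. Leaving out 1 plate gave -0.77 to 1.81 for c1qb and -0.52 to 0.96 for c1qc at 7 months against 37 dpf, and -1.39 to 1.93 for c4 and -0.25 to 1.89 for c6 at 7 against 5 months. At 5 months against 37 dpf it gave -1.92 to 5.43 for cfd in stromal wells, and -0.29 to 1.015 for c1qb and -0.12 to 0.40 for c1qc in macrophage wells.

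No paired analysis was possible because the plates carry no number that ties a plate of one age to a plate of another. Changes between 7 and 5 months within stromal and macrophage wells were not run, since 1 plate held 1 stromal and 4 macrophage wells. The planned erythroid rule of 30% globin UMIs found 3 wells and was replaced. Few wells and low counts limit c4, c6 and C1q within each plate.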
